A study of Mus musculus with 24 samples.

Results

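Of 24 RNA-seq libraries of micro-dissected mouse hippocampus, 8 held transcripts of neurons that lie in the hypothalamus, the region below the thalamus and outside the dissected structure. They were found by 1 gene: Pmch, the precursor of melanin-concentrating hormone, stood above 10 CPM (counts scaled to 1000000 per library) in these 8 libraries and at or below 10 CPM in the other 16. They are called Pmch-positive and Pmch-low libraries here. The split was made from measured Pmch counts, so Pmch itself and 3 further markers used to name the tissue, Hcrt, Avp and Oxt, are described without a test. For every other gene an adjusted p states an association with the level of another transcript in the same libraries, not an effect of a treatment.

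The series compared social defeat by paired fighting (stress) with controls in C57BL/6 mice labelled as knockouts of the interleukin-1 receptor IL-1R1 (KO, written nIL-1R1 in the series design) and in wild-type mice (WT). The Pmch-positive libraries were 4 of 5 KO stress, 3 of 6 KO control, 1 of 6 WT stress and 0 of 7 WT control libraries, and the Pmch-low libraries were the remaining 1, 3, 5 and 7 of those groups. Hippocampi were dissected on ice and snap frozen, RNA was taken up in Tri-Reagent, and Novogene made the Illumina libraries. The labels used here give neither the promoter or cell type in which the receptor was deleted, nor age or sex, nor whether the libraries of a group came from separate mice. The p-values therefore measure the spread between libraries, which may be technical.

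The lateral hypothalamus holds neurons that make melanin-concentrating hormone and a neighbouring population that makes orexin, and both are known for their part in feeding, sleep and arousal. Vasopressin and oxytocin are made by large neurons of the paraventricular and supraoptic nuclei and released from the posterior pituitary. The cell bodies of all 4 populations lie in the hypothalamus, while the hippocampus receives their fibres. The transcripts of their peptide precursors are therefore used as markers of hypothalamic tissue in a dissected piece.

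The 250 bases before the start of the 4 marker genes are shown because these genes name the tissue. They come from RefSeq, with its gene starts, on GRCm38.p6 (the mm10 assembly), 5′ to 3′ on the strand of the gene. Capitals mark 2 motifs searched on both strands, TATAAA, the core of the TATA box, and AGGTCA, the half-site bound by many nuclear receptors. The windows are chr10:88090822-88091071 on the plus strand for Pmch, chr11:100762932-100763181 on the minus strand for Hcrt, chr2:130582589-130582838 on the minus strand for Avp and chr2:130575919-130576168 on the plus strand for Oxt.
Pmch: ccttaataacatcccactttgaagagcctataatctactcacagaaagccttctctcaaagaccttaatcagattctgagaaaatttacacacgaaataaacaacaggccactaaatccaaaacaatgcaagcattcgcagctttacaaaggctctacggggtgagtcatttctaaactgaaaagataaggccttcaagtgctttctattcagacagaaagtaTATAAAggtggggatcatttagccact
Hcrt: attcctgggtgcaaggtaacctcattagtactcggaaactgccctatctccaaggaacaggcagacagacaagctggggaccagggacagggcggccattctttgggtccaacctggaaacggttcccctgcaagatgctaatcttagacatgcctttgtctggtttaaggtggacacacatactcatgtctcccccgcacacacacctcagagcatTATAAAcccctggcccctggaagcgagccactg
Avp: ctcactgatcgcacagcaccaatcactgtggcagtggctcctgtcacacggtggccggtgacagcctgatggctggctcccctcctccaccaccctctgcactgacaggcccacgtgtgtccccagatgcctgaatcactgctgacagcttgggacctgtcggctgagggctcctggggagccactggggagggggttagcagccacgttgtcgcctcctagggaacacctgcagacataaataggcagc
Oxt: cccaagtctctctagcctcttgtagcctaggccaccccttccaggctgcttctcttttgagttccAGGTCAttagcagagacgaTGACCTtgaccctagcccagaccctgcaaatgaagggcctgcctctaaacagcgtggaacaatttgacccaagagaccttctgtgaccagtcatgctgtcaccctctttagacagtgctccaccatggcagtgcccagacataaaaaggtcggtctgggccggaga
TATAAA stood 27 bases before the start of Pmch and 33 bases before that of Hcrt, and was found in 14.2% of 27025 mouse promoters in windows from 250 bases before to 50 after the start. AGGTCA stood 185 bases before the start of Oxt, and again 166 bases before it on the opposite strand, and was found in 16.0% of those promoters. The window of Avp held neither motif. Oxt and Avp are neighbours on chromosome 2, read towards each other with 3565 bases between them, while Pmch and Hcrt lie on chromosomes 10 and 11.

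Pmch (ENSMUSG00000035383.7, mm10 chromosome 10, 88091072 to 88092375) had 48.1, 58.3 and 45.4 CPM in KO control replicates 2, 3 and 4. It had 62.1, 45.9, 69.2 and 16.6 CPM in KO stress replicates 1, 2, 3 and 5 and 52.2 CPM in WT stress replicate 5. The 16 Pmch-low libraries ran from 0 to 2.36 CPM with a median of 0.164. The 2 libraries just inside the threshold were KO stress replicate 5 and KO control replicate 4, and the 2 just outside it were WT control replicates 1 and 3, at 2.36 and 0.872 CPM. A threshold of 5 CPM gave the same split, while 20 CPM moved KO stress replicate 5 to the other side.

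Hcrt (ENSMUSG00000045471.4, chromosome 11, 100761069 to 100762931), the orexin precursor, had 30.9, 41.8 and 34.1 CPM in KO control replicates 2, 3 and 4 and 42.7, 34.9, 60.02 and 5.59 CPM in KO stress replicates 1, 2, 3 and 5. WT stress replicate 5 had 27.2 CPM of Hcrt, and the Pmch-low libraries had between 0 and 0.748 CPM with a median of 0.199. Every Pmch-positive library thus lay above every Pmch-low one for this transcript of a different neuron population.

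Avp (ENSMUSG00000037727.6, chromosome 2, 130580620 to 130582554), the vasopressin precursor, ran from 1.89 to 91.1 CPM in Pmch-positive libraries with a median of 54.0, against 0 to 1.19 CPM with a median of 0.349 in Pmch-low libraries. Oxt (ENSMUSG00000027301.7, chromosome 2, 130576173 to 130577054), the oxytocin precursor, ran from 0 to 55.9 CPM with a median of 16.6, against 0 to 0.506 CPM with a median of 0.170. The highest values of both genes were in KO control replicates 2 and 3, with 89.6 and 91.1 CPM of Avp and 53.5 and 55.9 CPM of Oxt. KO stress replicate 5 had 0 reads of Oxt and the lowest Avp, and WT stress replicate 5 had 11.4 CPM of Avp and 6.47 CPM of Oxt beside a Pmch level in the middle of the range. The fitted log2 fold changes, Pmch-positive over Pmch-low, were 7.17 for Pmch, 7.15 for Hcrt, 6.69 for Avp and 7.08 for Oxt.

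**Figure D1:**
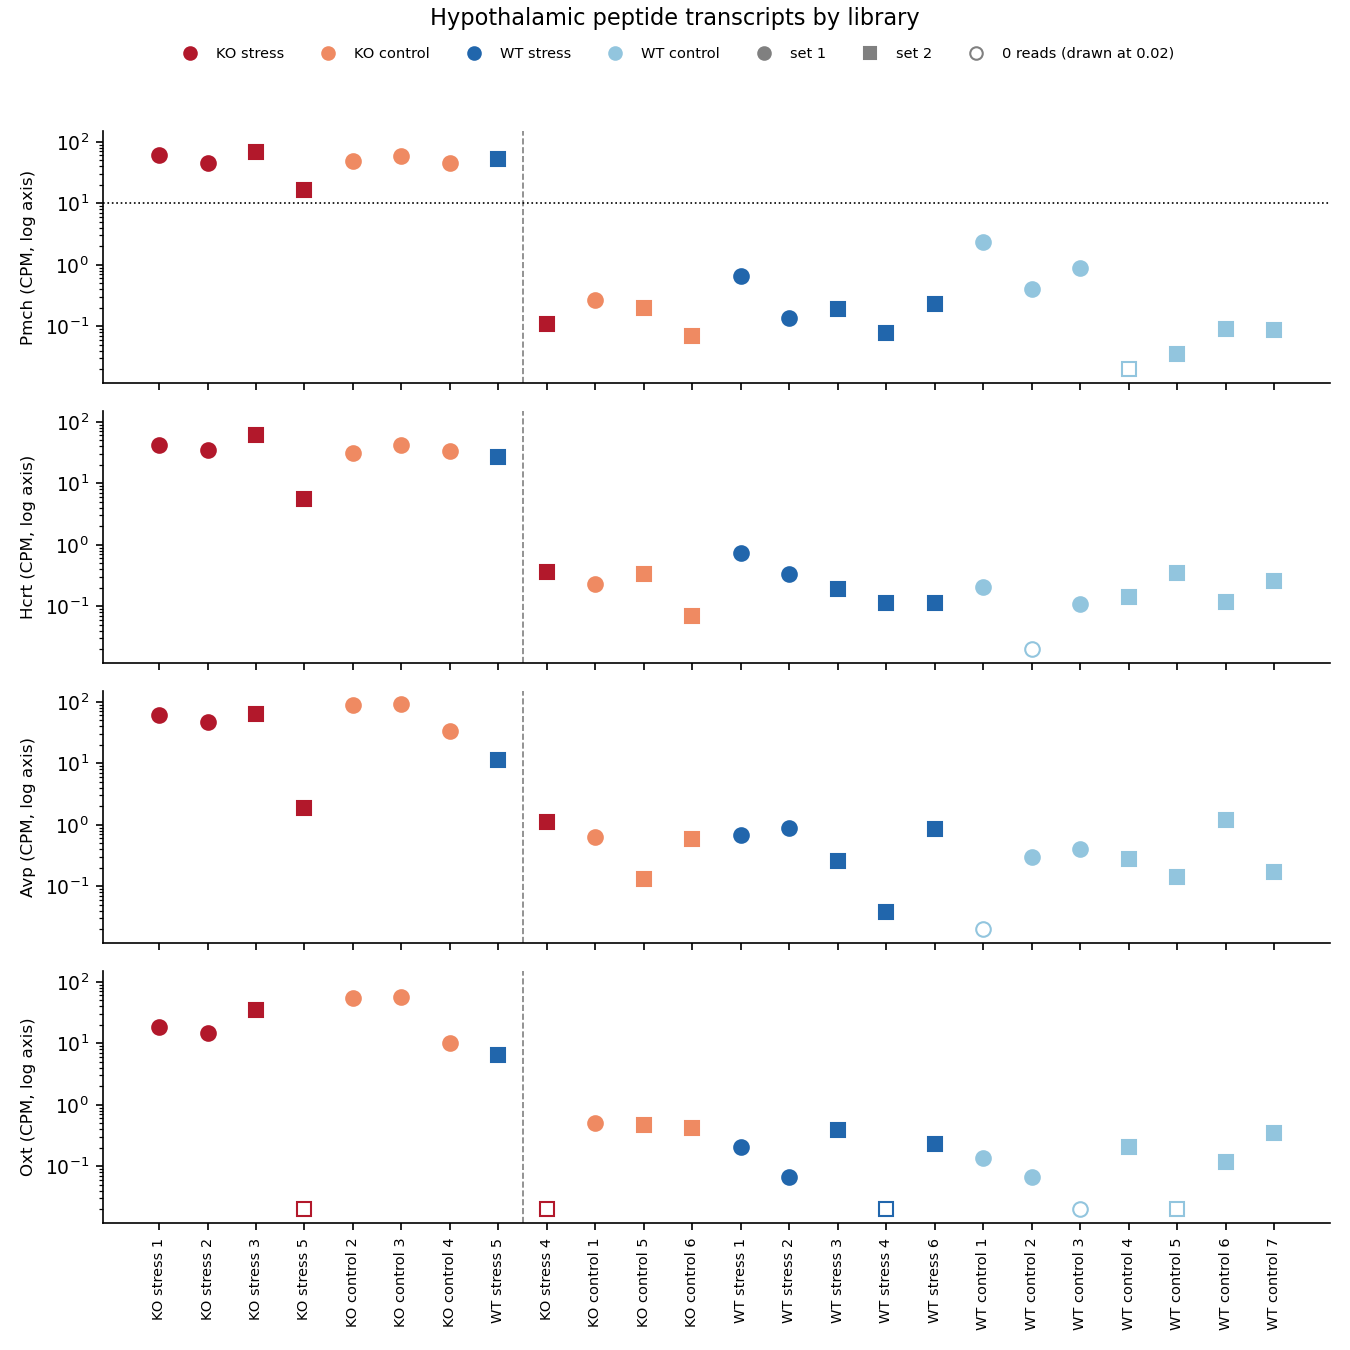
CPM of the 4 markers in each library on a logarithmic axis, with the 8 Pmch-positive libraries left of the 16 Pmch-low libraries, circles for library set 1, squares for library set 2, and a dotted line at 10 CPM in the Pmch panel. Open symbols at the bottom stand for 0 reads. KO stress replicate 5 has the lowest value of the Pmch-positive libraries in each panel, with 0 reads of Oxt.

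By study group, Pmch averaged 38.8 ± 29.6 CPM in KO stress, 25.4 ± 27.9 in KO control, 8.91 ± 21.2 in WT stress and 0.548 ± 0.855 CPM in WT control libraries (SD, n = 5, 6, 6 and 7). Avp averaged 35.02 ± 31.2, 36.0 ± 44.1, 2.36 ± 4.46 and 0.355 ± 0.391 CPM in the same groups. In every group but KO stress the SD exceeded the mean of both genes.

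Pmch-positive libraries made up 7 of 11 KO and 1 of 13 WT libraries, and 5 of 11 stress and 3 of 13 control libraries. These counts are a description with no test, since the split was made from measured values. The libraries also fall into 2 sets by the ribosomal transcript Rn45s, at or above 24238 CPM in set 1 and at or below 8786 CPM in set 2, and 5 of 11 libraries of set 1 against 3 of 13 of set 2 were Pmch-positive. In every study group the libraries with the lower replicate numbers were set 1 and those with the higher numbers set 2. Within set 1 they were 5 of 6 KO and 0 of 5 WT libraries, and within set 2 they were 2 of 5 KO and 1 of 8 WT libraries, all 3 of them stress libraries.

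The libraries held 25711872 to 35148198 counts, and 3 reads were worth 0.0854 to 0.117 CPM. Pyramidal and dentate granule cell markers of the hippocampus were read in every library, with summed levels from 434 to 1082 CPM and from 334 to 597 CPM. Il1r1, the targeted gene, ran from 3.69 to 8.42 CPM in KO stress, 2.09 to 5.45 in KO control, 3.36 to 7.34 in WT stress and 1.96 to 5.67 CPM in WT control libraries, so its level did not separate KO from WT. Pmch-positive and Pmch-low libraries had medians of 4.03 and 3.95 CPM of Il1r1 (log2 fold change 0.05, adjusted p = 0.889).

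Across the transcriptome, 939 of 16309 genes (5.76%) were higher and 819 (5.02%) lower in Pmch-positive than in Pmch-low libraries at an adjusted p under 0.05, with stress as a term (edgeR quasi-likelihood test, adjusted over all 16313 genes tested). The median log2 fold change of all genes was -0.0034. In 70 genes (0.429%) every Pmch-positive library lay above every Pmch-low library, and in 5 genes (0.0307%) every one lay below. The count ranged from 1116 without KO control replicate 2 to 2569 without WT control replicate 1, and was 1161 without KO stress replicate 3. Since 7 of the 8 Pmch-positive libraries were from KO mice, genotype was added as a term, which left 363 genes higher (2.23%) and 168 lower (1.03%), of which 354 and 162 were among those called without it. In KO libraries alone, 7 Pmch-positive against 4 Pmch-low, 437 genes (2.76%) were higher and 317 (2.01%) lower. With library set as a term 821 genes were higher (5.03%) and 478 lower (2.93%).

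The filter on low counts asked for at least 0.345 CPM in 5 libraries, and 714 of the 16309 genes met it only with the help of the side on which they were higher. The filter itself favours a difference in such genes, so those named are given by their values with no test and are left out of the counts of higher and lower list members. Summed levels of lists include them, and statements that their ranges did not overlap describe the values only. Of the other 15595 genes, 862 (5.53%) were higher and 814 (5.22%) lower, and in 63 (0.404%) every Pmch-positive library lay above every Pmch-low one, and in 5 (0.0321%) below. Counts of list members are read against these shares.

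Within set 1 the split called 169 genes higher (1.02%) and 57 lower (0.344%), and within set 2 2223 higher (13.4%) and 2163 lower (13.1%). In set 1 all 5 Pmch-positive libraries were KO and 5 of 6 Pmch-low libraries WT. Results within set 1, fitted without genotype, therefore can hardly be told apart from a difference between KO and WT. Of the higher genes 92 were shared, which is 54.4% of those of set 1 and 4.14% of those of set 2. Of the lower genes of set 1, 14 (24.6%) were lower and 24 (42.1%) higher in set 2.

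Among the other peptide precursors of hypothalamic neurons, Gal, Pomc, Agrp and Trh were higher in the Pmch-positive libraries. Of the 11 list members past the filter besides the 4 markers, 3 (Npvf, Ghrh and Qrfp) met it only with the Pmch-positive libraries. Of the other 8, 4 were higher and 0 lower, with a median log2 fold change of 1.36. The same 4 passed with genotype as a term and within set 1, and 2 of them passed in KO libraries alone. Within set 2 5 members were higher, these 4 among them. The summed level of the list without the 4 markers overlapped, at 61.5 to 109 CPM in Pmch-positive against 11.5 to 78.5 CPM in Pmch-low libraries. The overlap lay within set 1, where Pmch-positive sums were 61.5 to 85.9 CPM. There the Pmch-low WT control replicate 3 and WT stress replicate 1 reached 78.5 and 76.4 CPM. Among set 2 libraries the lowest Pmch-positive sum was 66.3 CPM and the highest Pmch-low sum 29.1 CPM.

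Npvf (chromosome 6, 50650672 to 50654439), the precursor of RFamide peptides made in the dorsomedial hypothalamus, had 0.441 to 2.47 CPM with a median of 1.08 in Pmch-positive libraries. In Pmch-low libraries it had 0 to 0.137 CPM with a median of 0, which came to 268 reads in all 8 positive libraries against 9 reads in all 16 low ones. The groups did not overlap, which describes the values only, since the filter favours such a gene. The fitted log2 fold change was 5.51, which depends on the prior count as in other genes with few reads on 1 side. It was 4.38 within set 1 and 6.09 within set 2.

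Gal (chromosome 19, 3409915 to 3414544), which encodes galanin, had 2.03 to 8.74 CPM with a median of 6.63 in Pmch-positive libraries, against 0.114 to 1.90 CPM with a median of 0.828 in Pmch-low libraries. The groups again did not overlap (7.34-fold, log2 fold change 2.88 ± 0.33 SE, adjusted p = 4.39e-06). Pomc, the precursor of melanocortins and beta-endorphin in the arcuate nucleus and the pituitary, had 3.15 to 25.5 CPM with a median of 10.2, against 1.32 to 4.22 CPM with a median of 2.76. Of the Pmch-positive libraries 7 lay above all Pmch-low ones for Pomc, the exception being KO stress replicate 5, and the difference was 3.86-fold (log2 fold change 1.95 ± 0.25, adjusted p = 2.09e-05).

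Further members of the list were Ghrh, Agrp, Trh and Qrfp. Ghrh, growth hormone-releasing hormone, had a median of 1.07 CPM in Pmch-positive and 0.146 CPM in Pmch-low libraries (log2 fold change 2.71). Agrp, the feeding-promoting antagonist of melanocortin receptors, had medians of 2.23 and 0.351 CPM (2.18 ± 0.35, adjusted p = 0.000299). Trh, thyrotropin-releasing hormone, had medians of 17.1 and 1.17 CPM and overlapped widely, with 4 of 8 Pmch-positive libraries above the highest Pmch-low value of 14.96 CPM (2.20 ± 0.54, adjusted p = 0.012). Qrfp, another RFamide precursor, had a log2 fold change of 1.24.

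The other 4 tested members did not pass, and Nms, neuromedin S, was removed by the filter on low counts. Cartpt, the precursor of CART peptides, had medians of 28.1 and 4.61 CPM but a fitted log2 fold change of 0.77 (adjusted p = 0.446), with -0.59 within set 1 and 2.95 within set 2. Nts, neurotensin, stood at 0.21 (adjusted p = 0.276). Kiss1, kisspeptin, and Gnrh1, gonadotropin-releasing hormone, had 0.72 (adjusted p = 0.403) and 0.15 (adjusted p = 0.764), at medians below 1 CPM on both sides.

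Of the transcription factors that pattern the hypothalamus or mark its nuclei, Nkx2-1, Six3 and Otp were higher. Of the 24 on the list, 10 met the filter only with the Pmch-positive libraries. Of the other 14, 3 were higher and 0 lower (median log2 fold change 1.03), and in 2 of them the groups did not overlap. Adding genotype as a term, 2 of these 3 passed, and in KO libraries alone 2 of them. Within set 1 1 was higher and 2 lower of the 14, and within set 2 13 were higher and 1 lower, against 13.4% and 13.1% of all genes. The summed level of all 24 was 85.9 to 136 CPM in Pmch-positive libraries, against 38.6 to 68.9 CPM in Pmch-low libraries. These ranges did not overlap, which describes the values only, since the 10 factors that the filter favours are in the sum.

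Isl1 (chromosome 13, 116298281 to 116309689), a LIM homeodomain factor of arcuate neurons and also of striatal precursors, had 1.68 to 6.01 CPM with a median of 3.32 in Pmch-positive libraries. In Pmch-low libraries Isl1 had 0 to 0.888 CPM with a median of 0.062. The log2 fold change was 4.82 over all libraries, with 3.68 within set 1 and 7.19 within set 2.

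Nkx2-1 and Nkx2-4 encode related homeodomain factors of the ventral hypothalamus. Nkx2-1 had 3.18 to 8.20 CPM with a median of 5.78 in Pmch-positive libraries, against 0.204 to 2.22 CPM with a median of 0.455 in Pmch-low libraries (log2 fold change 2.95 ± 0.36, adjusted p = 9.38e-06). Nkx2-4 had 0.523 to 1.86 CPM with a median of 0.863, against 0 to 0.472 CPM with a median of 0 (4.92). Nkx2-1 did not overlap between the groups, while Nkx2-4 met the filter only with the Pmch-positive libraries. Nkx2-1 shares sequence positions with the antisense gene Gm26973, and whether the authors' counting used strand is not given in the sources used here.

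Fezf1 and Nr5a1, which encodes SF-1, mark the ventromedial nucleus. Fezf1 had 0 to 3.64 CPM with a median of 2.27 in Pmch-positive libraries (log2 fold change 4.72). In Pmch-low libraries it had 0 to 0.342 CPM with a median of 0.0907. Nr5a1 had 0.0699 to 2.77 CPM with a median of 1.69, against 0 to 0.279 CPM with a median of 0.061 (4.43). For both genes KO stress replicate 5 lay among the Pmch-low libraries, with 0 CPM of Fezf1 and 0.0699 CPM of Nr5a1, and the other 7 lay above all of them.

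The list also holds homeobox genes of the anterior neural plate and of single nuclei. Six3 had 13.7 to 38.3 CPM with a median of 19.6 in Pmch-positive libraries, against 0.209 to 9.50 CPM with a median of 1.24 in Pmch-low libraries, with no overlap (8.84-fold, log2 fold change 3.14 ± 0.54, adjusted p = 0.000767). Bsx, a factor of arcuate and dorsomedial neurons, differed by 3.30 on the log2 scale, and 6 of 8 libraries lay above all Pmch-low ones. Six6 had 174 reads over the Pmch-positive libraries and 2 over the Pmch-low libraries, and Hmx2 had 95 and 4 reads. Sim1 and Otp, which the neurosecretory neurons of the paraventricular nucleus need, had log2 fold changes of 3.38 and 2.65. Otp passed (adjusted p = 0.0222) and was lost without KO control replicate 3 (adjusted p = 0.0853). Hmx3, a relative of Hmx2, had 2.94.

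Factors of the mammillary and premammillary hypothalamus and of its border with the thalamus were among the 11 that did not pass over all 24 libraries. Foxb1 had medians of 3.64 CPM in Pmch-positive and 0.186 CPM in Pmch-low libraries (log2 fold change 1.80, adjusted p = 0.18), and Lhx1 had a log2 fold change of 0.83 (adjusted p = 0.548). Within set 1 these genes had 0.05 and -1.10, and within set 2 5.82 and 8.61. Such fitted values of genes with few reads depend on the prior count, and the difference between the sets was not tested. Over all libraries, log2 fold changes were 1.98 for Foxa1 (adjusted p = 0.187) and -0.14 for Barhl1 (adjusted p = 0.941). Barhl1 was lower within set 1 (-1.90, adjusted p = 0.0181) and had 4.10 within set 2. Sox14 was likewise lower within set 1 (-1.95, adjusted p = 0.00267) and had 5.16 within set 2. For these genes too the difference between the sets was not tested.

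**Figure D2:**
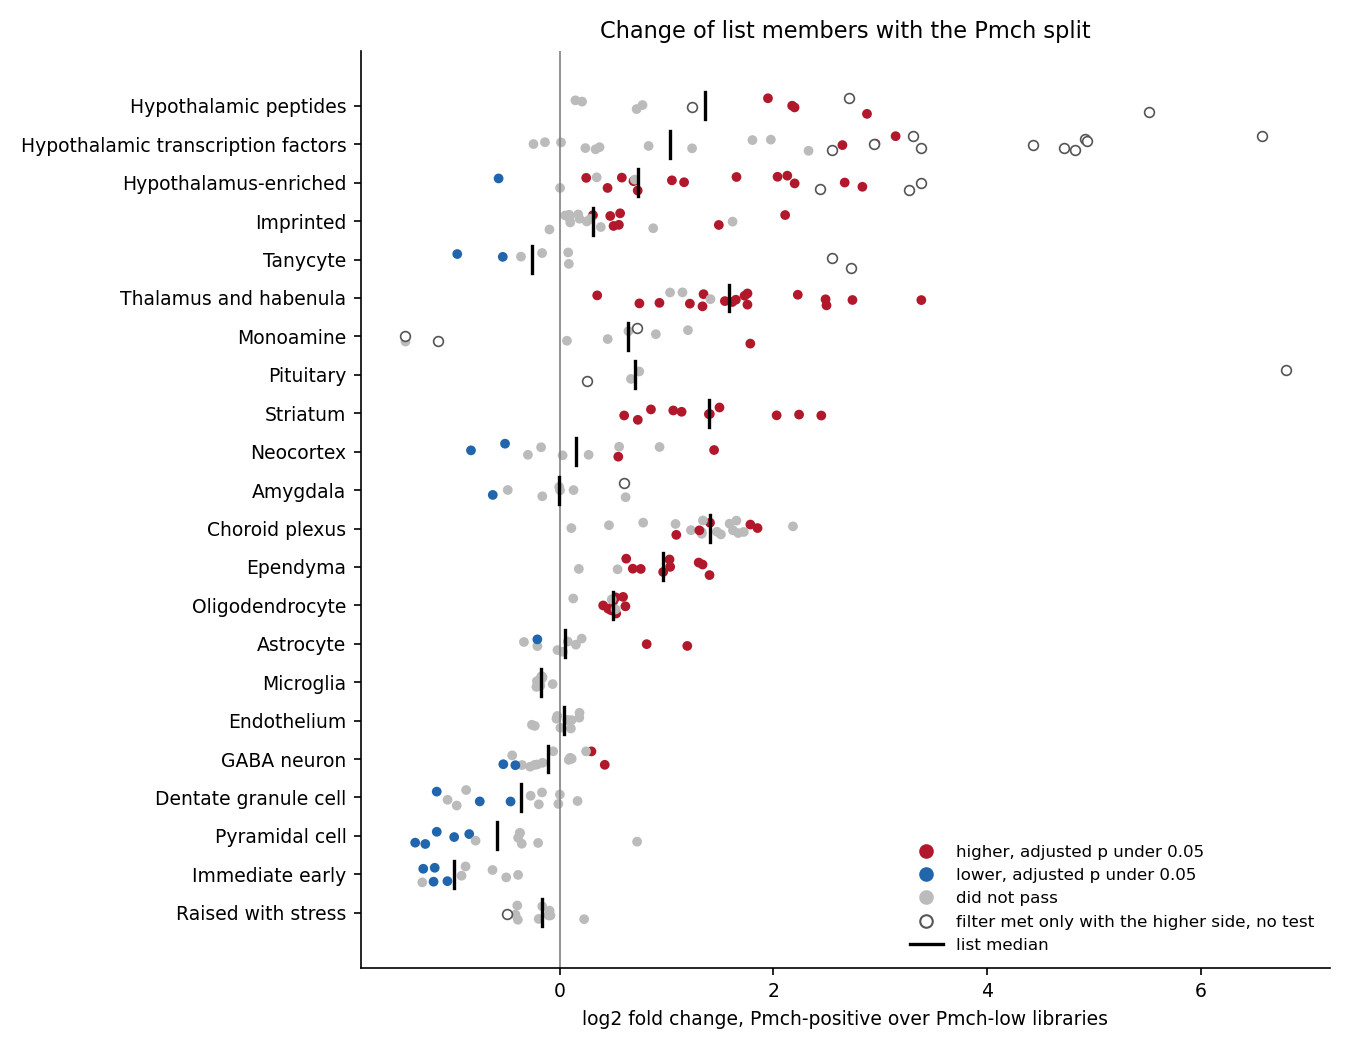
Log2 fold change of each member of the gene lists past the filter, Pmch-positive over Pmch-low libraries, with members that passed an adjusted p of 0.05 in red (higher) and blue (lower) and the others in grey. Open circles are members that met the filter only with their higher side, whose fitted values depend on the prior count, and black lines are list medians without them, at 1.36, 1.03 and 1.58 for the peptide, transcription factor and thalamus lists and -0.59 for the pyramidal list.

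Genes enriched in the hypothalamus that are not confined to it showed smaller differences over a higher base level. Of 20 on the list, 3 (Calcr, Gabre and Mc3r) met the filter only with the Pmch-positive libraries. Of the other 17, 13 were higher and 1 lower (median log2 fold change 0.73), and in 4 the groups did not overlap. The fit with genotype as a term had 8 higher, the KO libraries alone 9, within set 1 6 and within set 2 14. The summed level was 1361 to 1812 CPM in Pmch-positive libraries, with a median of 1570, against 664 to 1387 CPM with a median of 759.

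Gpx3, a secreted glutathione peroxidase, had 36.4 to 74.2 CPM with a median of 53.1 in Pmch-positive libraries, against 5.71 to 30.3 CPM with a median of 11.8 in Pmch-low libraries (3.15-fold, log2 fold change 1.65 ± 0.28, adjusted p = 0.000749). Gabre, the epsilon subunit of the GABA-A receptor, had 0.858 to 3.83 CPM with a median of 1.87 in Pmch-positive libraries (log2 fold change 3.39). In Pmch-low libraries it had 0 to 0.547 CPM with a median of 0.127. Gpx3 did not overlap between the groups, and the same held for Baiap3, a regulator of dense-core vesicle exocytosis (2.13, adjusted p = 0.00876), the insulin receptor substrate gene Irs4 (2.83, adjusted p = 0.009) and the GABA-A theta subunit gene Gabrq (2.67, adjusted p = 0.0121). Asb4, a gene of arcuate neurons, had a log2 fold change of 2.20 ± 0.35 (adjusted p = 0.000263). Nrsn2, a neuronal vesicle protein gene, had 0.45 ± 0.09 (adjusted p = 0.00302). The calcitonin receptor gene Calcr, without a test, had 3.27.

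Hap1, which encodes huntingtin-associated protein 1, is abundant in the hypothalamus and present in the hippocampus, and had medians of 395 CPM in Pmch-positive and 204 CPM in Pmch-low libraries (log2 fold change 0.73 ± 0.15, adjusted p = 0.00349). The melanocortin receptor gene Mc4r was the 1 member that was lower, with medians of 3.58 and 4.55 CPM (-0.57 ± 0.16, adjusted p = 0.0197). It did not pass without KO control replicate 3.

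Imprinted genes, several of which are expressed strongly in the hypothalamus, gave 7 of 19 higher and 0 lower (median log2 fold change 0.31). With genotype as a term 2 passed. Magel2, a gene of the Prader-Willi region, had 8.65 to 16.3 CPM with a median of 11.1 in Pmch-positive libraries, against 0.658 to 6.68 CPM with a median of 1.71 in Pmch-low libraries, with no overlap (4.32-fold, 2.11 ± 0.38, adjusted p = 0.00102). Peg10, a retrotransposon-derived gene, had 1.49 ± 0.29 (adjusted p = 0.00233) and Plagl1, a zinc finger gene, 0.55 ± 0.15 (adjusted p = 0.0168). Ndn, necdin, was high everywhere, with medians of 410 and 313 CPM (0.31 ± 0.09, adjusted p = 0.0201), and had an adjusted p of 0.0526 without KO control replicate 3.

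Of 8 markers of tanycytes, the ependymal-like glia that line the floor of the third ventricle, 2 met the filter only with the Pmch-positive libraries, and of the other 6, 0 were higher and 2 lower. Of those 2 without a test, Rax, their homeobox gene, had medians of 0.892 CPM in Pmch-positive and 0.0619 CPM in Pmch-low libraries (log2 fold change 2.55). The orphan receptor gene Gpr50 had 0.544 and 0.0682 CPM (2.73). Lhx2 (-0.53 ± 0.10, adjusted p = 0.0011) and Crym (-0.96 ± 0.22, adjusted p = 0.00849) were lower. Both are also expressed by hippocampal and cortical neurons, and they stood at medians of 61.8 and 102 CPM in Pmch-positive libraries, against 94.2 and 189 CPM in Pmch-low libraries.

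Among the genes with the largest differences that no list held was Abhd12b, an abhydrolase gene on chromosome 12. Abhd12b had 3.94 to 10.2 CPM with a median of 6.45 in Pmch-positive libraries (log2 fold change 4.14). In Pmch-low libraries it had 0 to 2.6 CPM with a median of 0.103. Parpbp had 1.12 to 2.63 CPM with a median of 1.83, against 0 to 0.507 CPM with a median of 0.195 (3.49). Neither overlapped. Parpbp overlaps Pmch on the opposite strand over 944 bases, from 88091432 to 88092375 on chromosome 10, so without strand its reads and those of Pmch cannot be told apart. Pgr15l, a G protein-coupled receptor gene, had 2.94 ± 0.56 (adjusted p = 0.00176). B230323A14Rik, antisense to Foxb1, had 3.09, with the same uncertainty about strand.

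The thalamus lies between the hippocampus and the hypothalamus, and the habenula at its dorsal edge. Of 20 markers of thalamus and habenula, 17 were higher and 0 lower (median log2 fold change 1.58), and in 8 the groups did not overlap. In the fit with genotype as a term 14 were higher, in KO libraries alone 15, within set 1 8 and within set 2 19. The summed level was 695 to 1296 CPM in Pmch-positive libraries with a median of 836, against 189 to 680 CPM with a median of 255 in Pmch-low libraries.

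Prkcd (chromosome 14, 30595354 to 30626210), a protein kinase C gene of thalamic relay neurons, had 145 to 235 CPM with a median of 169 in Pmch-positive libraries, against 13.9 to 104 CPM with a median of 27.5 in Pmch-low libraries (5.64-fold, log2 fold change 2.50 ± 0.25, adjusted p = 2.2e-06). Gpr151, a receptor gene of habenular neurons, had 4.55 to 9.57 CPM with a median of 6.76, against 0.194 to 3.31 CPM with a median of 0.904 (2.74 ± 0.29, adjusted p = 1.97e-06). Tac2, the neurokinin B precursor, had 13.2 to 20.9 CPM with a median of 19.1, against 4.72 to 10.9 CPM with a median of 6.37 (1.35 ± 0.15, adjusted p = 2.52e-06). None of these genes overlapped, nor did Ramp3, a receptor activity-modifying protein gene (1.76 ± 0.19, adjusted p = 2.52e-06), or Gbx2, a homeobox gene of the thalamus (3.38 ± 0.66, adjusted p = 0.00244).

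Tcf7l2, a Wnt pathway transcription factor of thalamic and habenular neurons, differed between the 2 library sets. In set 2 the 3 Pmch-positive libraries had 92.3 to 116 CPM, and the 10 Pmch-low libraries 5.57 to 16.7 CPM (log2 fold change 3.6, adjusted p = 3.55e-05). In set 1 the 5 Pmch-positive libraries had 40.1 to 54.6 CPM and the 6 Pmch-low libraries 26.3 to 61.0 CPM (0.30, adjusted p = 0.711). With log2 Tcf7l2 as a term, 45 genes were higher (0.276%) and 19 lower (0.117%), of which 42 and 5 were among those called without it. Of the 8 peptides 2, Gal and Pomc, and of the 14 transcription factors 1, Nkx2-1, passed in that fit. Of the 20 thalamus and habenula markers 6 passed, and Tcf7l2, the term itself, is in the 20 but not in the 6. None of the enriched and imprinted genes passed in this edgeR fit. Without the 3 Pmch-positive libraries of set 2, which leaves 5 KO libraries of set 1 on that side, 429 genes were higher (2.59%) and 339 lower (2.04%), with 4 of the 8 peptides and 2 of the 14 transcription factors among the higher.

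**Figure D3:**
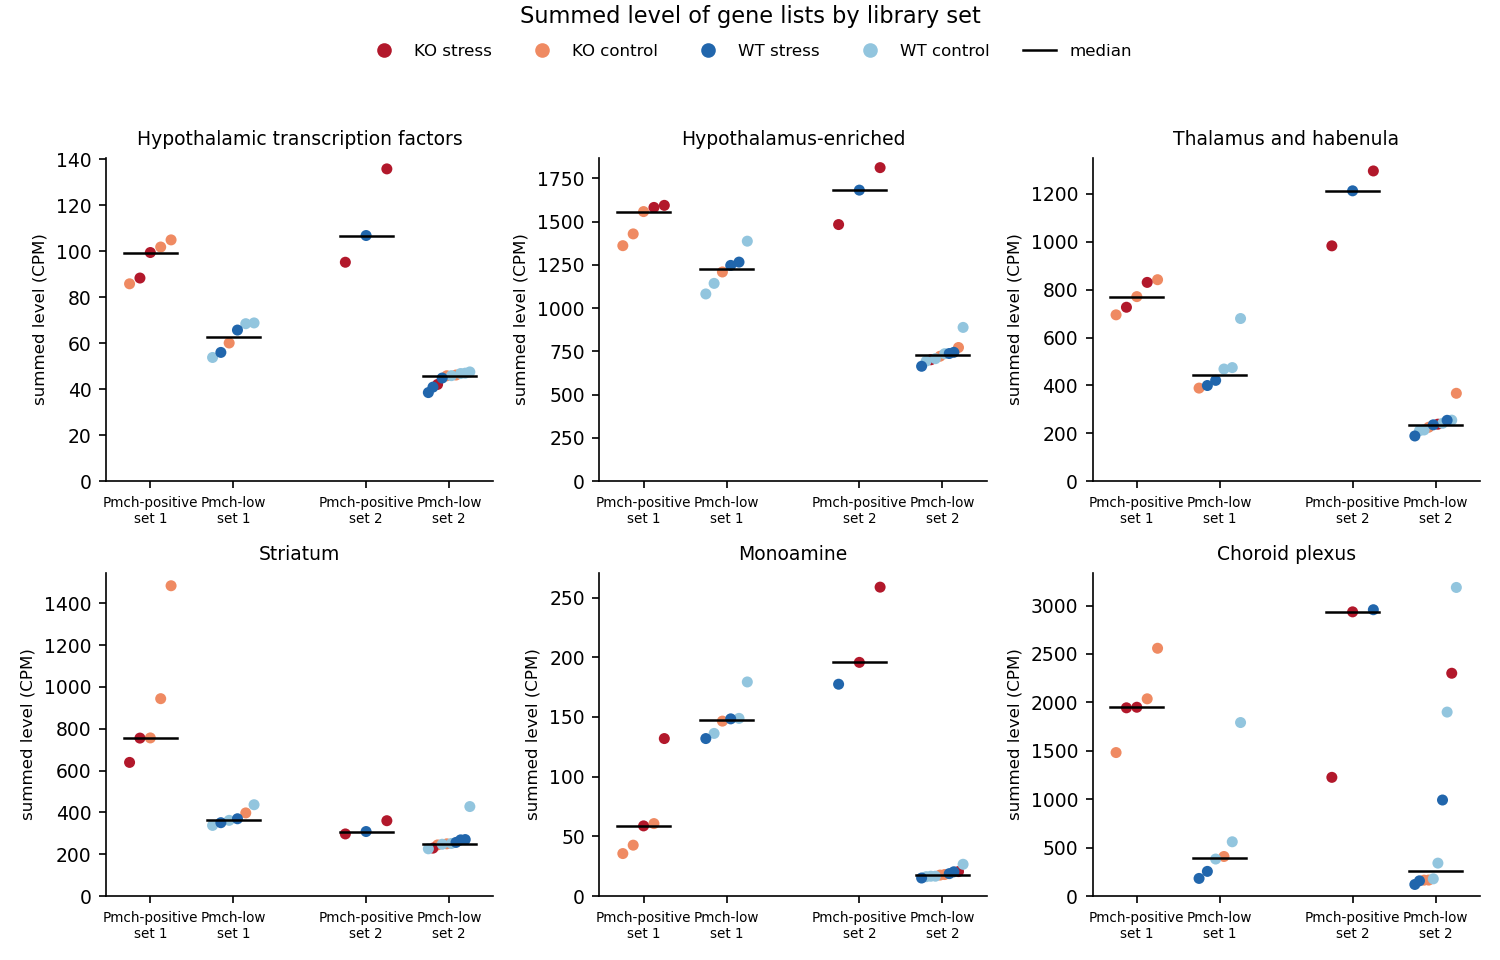
Summed CPM of 6 gene lists in each library, by side of the Pmch split and by library set, with a line at the median. The sums include members that met the filter only with their higher side. Transcription factors of the hypothalamus and thalamus markers lie higher in Pmch-positive libraries of both sets, striatum markers mainly in set 1 (639 to 1484 against 338 to 437 CPM), and monoamine markers in set 2 (177 to 259 against 15.1 to 26.6 CPM).

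All 11 tested markers of the striatum were higher (median log2 fold change 1.40). With genotype as a term 5 passed, in KO libraries alone 8, within set 1 8 and within set 2 3. The summed level was 639 to 1484 CPM in the Pmch-positive libraries of set 1, against 338 to 437 CPM in its Pmch-low libraries, and 297 to 360 CPM against 226 to 428 CPM in set 2, where the groups overlapped.

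Adora2a, the adenosine receptor gene of striatopallidal neurons, had 3.97 to 66.9 CPM with a median of 24.2 in Pmch-positive libraries, against 2.51 to 17.3 CPM with a median of 3.91 in Pmch-low libraries (log2 fold change 2.24 ± 0.37, adjusted p = 0.000535). It was 2.66 within set 1 (adjusted p = 0.00251) and 0.17 within set 2 (adjusted p = 0.868). Drd2, a dopamine receptor gene expressed in the striatum and by dopamine neurons, differed in both sets, by 1.19 and 2.99, and its groups did not overlap over all libraries (2.03 ± 0.35, adjusted p = 0.000661). Rgs9, a striatal regulator of G protein signalling (1.14 ± 0.19, adjusted p = 0.000419), and the substance P precursor gene Tac1 (1.40 ± 0.24, adjusted p = 0.000848) were higher as well.

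Markers of midbrain monoamine neurons did not follow the split in the same way in both sets. Of 10 on the list, 3 met the filter only with their higher side, and 1 of the other 7 was higher over all libraries, Hdc, the histamine-synthesizing enzyme of neurons in the tuberomammillary nucleus of the hypothalamus (medians of 9.43 and 2.47 CPM, log2 fold change 1.78 ± 0.27, adjusted p = 0.000192). Within set 1, 0 of the 7 were higher and 2 lower, with summed levels of 35.6 to 132 CPM in Pmch-positive against 132 to 179 CPM in Pmch-low libraries. Within set 2, 6 of the 7 were higher. For 7 transcription factors of the midbrain and hindbrain (Pax7, Pax3, Gata3, Pou4f2, Foxa2, Tal1 and En2, chosen after their values were seen) the sum was 2.95 to 7.28 CPM in Pmch-positive against 16.3 to 34.5 CPM in Pmch-low libraries of set 1. In set 2 it was 14.9 to 31.1 CPM against 1.85 to 6.69 CPM. Since the genes were chosen from these values, the opposite order in the 2 sets is a description and no support. Pax7, Pax3, Pou4f2 and Foxa2 also met the filter only with their higher side.

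**Figure D4:**
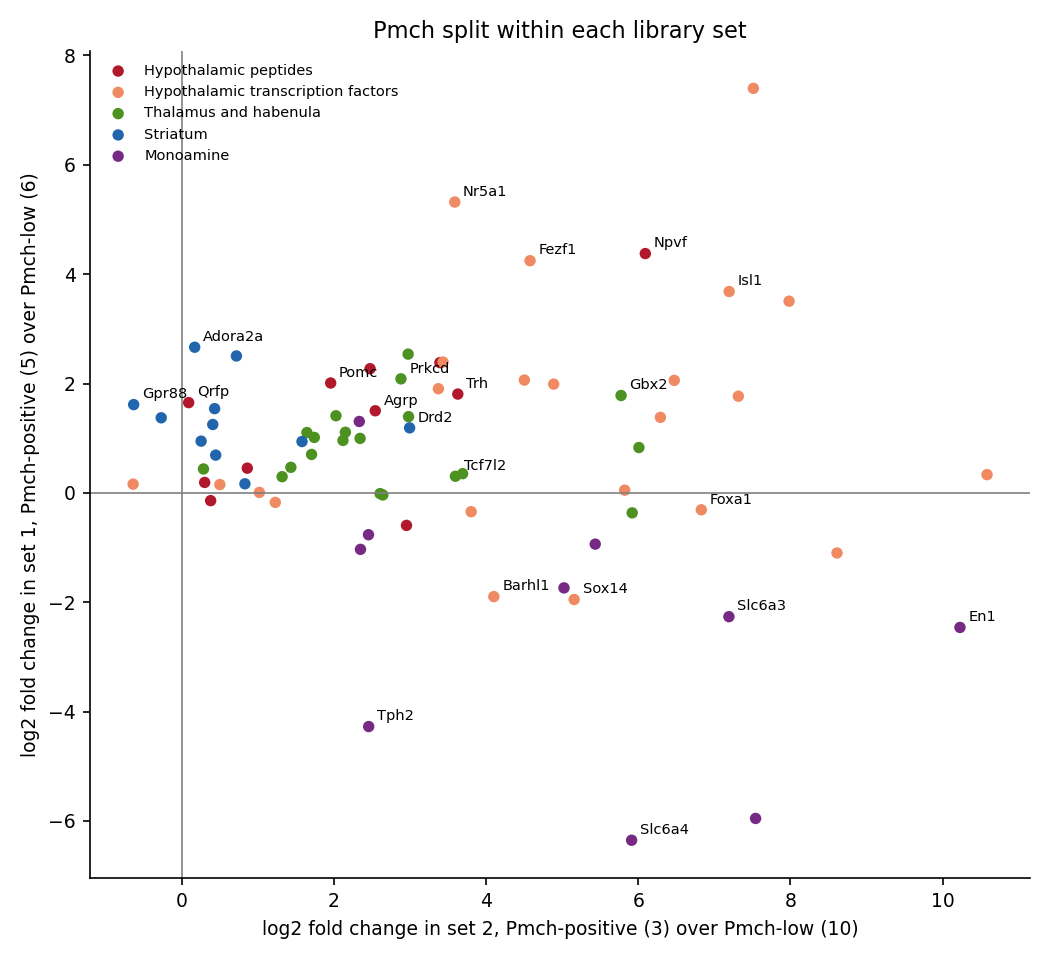
Log2 fold change, Pmch-positive over Pmch-low, within set 2 (horizontal) and within set 1 (vertical) for members of 5 gene lists. Pomc and Trh lie above 0 on both axes (1.96 in set 2 and 2.01 in set 1, 3.63 and 1.81). Adora2a is high in set 1 (2.66, and 0.17 in set 2) and Tcf7l2 in set 2 (3.6, and 0.30 in set 1). Fitted values of genes with few reads, such as Npvf and Isl1, depend on the prior count.

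Of 4 pituitary markers past the filter, Cga and Pitx1 met it only with the Pmch-positive libraries. Cga, the common subunit of the pituitary glycoprotein hormones, had reads in 6 of 8 Pmch-positive libraries, up to 1.65 CPM, and no reads in any Pmch-low library, which is at least 6.93-fold higher against a floor of 3 reads per library. Growth hormone, Gh, which was not tested, stood at 29.98 and 39.1 CPM in KO stress replicates 3 and 5 and at or below 0.602 CPM elsewhere. Transcripts of the kidney (Kap, Miox, Slc34a1, Umod and Acsm2, chosen after their values were seen) summed to 2.51 to 8.11 CPM in 6 libraries, all KO, of which 5 were Pmch-positive, and to at most 0.306 CPM in the other 18.

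The ependyma lines the ventricles next to the hippocampus and the third ventricle within the hypothalamus, and the choroid plexus lies inside ventricles. Of 11 ependymal markers 9 were higher and 0 lower (median log2 fold change 0.97), among them the cilium genes Dynlrb2 (medians of 2.98 and 1.04 CPM, 1.30 ± 0.28, adjusted p = 0.0049), Hydin (1.40 ± 0.31, adjusted p = 0.00524) and Ccdc153 (1.03 ± 0.24, adjusted p = 0.0075) and Rarres2, which encodes chemerin (0.62 ± 0.13, adjusted p = 0.00345). With genotype as a term 2 of them passed. Of 21 choroid plexus markers 5 were higher, with a median of 1.41, and 0 passed with genotype as a term.

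Ttr, the transthyretin gene and the most abundant choroid plexus transcript, had 769 to 2128 CPM with a median of 1427 in Pmch-positive libraries, against 6.86 to 2411 CPM with a median of 150 in Pmch-low libraries (log2 fold change 1.59, adjusted p = 0.268). All Pmch-positive libraries held the transcript at a high level, but so did several Pmch-low libraries. The prolactin receptor gene Prlr, expressed by the choroid plexus, had 1.78 ± 0.42 (adjusted p = 0.01), and Col8a1, a collagen gene, 1.31 ± 0.37 (adjusted p = 0.0234, and 0.0762 without KO control replicate 2). The count of choroid plexus markers rested on single libraries. It was 1 without KO control replicate 2, 2 without KO control replicate 3, KO stress replicate 3 or WT stress replicate 3, 5 or 6, and 3 without WT stress replicate 1. It was 8, 9, 11 and 14 without WT control replicate 5, WT control replicate 1, KO stress replicate 4 and WT control replicate 6.

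Myelin genes were slightly higher. Of 12 oligodendrocyte markers 9 passed (median log2 fold change 0.49), among them Mog (medians of 116 CPM in Pmch-positive and 82.5 CPM in Pmch-low libraries, 0.52 ± 0.12, adjusted p = 0.00889), Cldn11 (0.48 ± 0.13, adjusted p = 0.0162), Mal (0.45 ± 0.13, adjusted p = 0.0236) and Mag (0.47 ± 0.13, adjusted p = 0.025). The count was 3 without KO control replicate 2 or 3, 2 without KO stress replicate 3 and 5 without WT stress replicate 6. It was 0 with genotype as a term, within set 1, in KO libraries alone and without the 3 Pmch-positive libraries of set 2. Within set 2 it was 7. Mal was lost without KO control replicate 2 or 3 or KO stress replicate 3, and Mag without KO control replicate 3 or KO stress replicate 3.

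Of 10 astrocyte markers, the GABA transporter gene Slc6a11 (0.81 ± 0.20, adjusted p = 0.0118) and angiotensinogen, Agt (1.19 ± 0.30, adjusted p = 0.0133), were higher. Within set 1 these 2 genes had 0.02 and 0.24, and within set 2 1.75 and 2.22. The glutamate transporter gene Slc1a2 was lower (-0.21, adjusted p = 0.0493) and was lost without any 1 of 16 libraries (adjusted p up to 0.0919). None of the 10 microglia and 10 endothelial markers passed in the edgeR or the DESeq2 test (1 and 2 had an unadjusted p under 0.05 in edgeR), and without WT control replicate 1 2 endothelial markers were lower in edgeR. Within set 2, 4 microglia markers were lower, and 2 endothelial markers were higher and 1 lower, against 13.4% of all genes higher and 13.1% lower there. The values over all libraries were -0.22 for the fractalkine receptor gene Cx3cr1 (adjusted p = 0.183) and -0.23 for Egfl7 (adjusted p = 0.0826), a secreted factor gene of endothelium.

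Some markers of hippocampal neurons were lower in the Pmch-positive libraries. Of 12 pyramidal cell markers 5 were lower and 0 higher (median log2 fold change -0.59), and of 12 dentate granule cell markers 3 were lower and 0 higher (median -0.37). The summed pyramidal level was 434 to 630 CPM with a median of 510 in Pmch-positive libraries, against 478 to 1082 CPM with a median of 831 in Pmch-low libraries. In these bulk samples fewer cells of a type and less RNA per cell cannot be told apart. Without WT stress replicate 2 the counts were 8 and 6, and without WT control replicate 1 there were 5 dentate markers. Without WT stress replicate 1, 1 pyramidal marker was higher. With genotype as a term 1 pyramidal and 2 dentate markers were lower. Within set 1, 1 pyramidal marker was lower and 1 higher and 0 dentate markers passed in edgeR, and within set 2 6 of each list were lower.

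Pou3f1, a POU factor of CA1 and cortical pyramidal neurons, had 42.3 to 65.3 CPM with a median of 52.9 in Pmch-positive libraries, against 51.2 to 141 CPM with a median of 91.5 in Pmch-low libraries (log2 fold change -0.85 ± 0.16, adjusted p = 0.00188). Neurod6, a factor of excitatory forebrain neurons, had medians of 71.5 and 168 CPM (-0.99 ± 0.25, adjusted p = 0.0152), and the CA1 marker Fibcd1 had 58.8 and 130 CPM (-1.15 ± 0.28, adjusted p = 0.0108). Spink8, another CA1 marker, had -1.35 ± 0.33 (adjusted p = 0.012) and Lefty1, a TGF-beta family ligand gene of CA1, -1.26 ± 0.33 (adjusted p = 0.0161). All of these ranges overlapped. Among dentate genes, Npnt, nephronectin, had -0.46 ± 0.09 (adjusted p = 0.00203), the channel gene Trpc6 -0.75 ± 0.17 (adjusted p = 0.00527) and the complement-like synaptic gene C1ql2 -1.15 ± 0.34 (adjusted p = 0.0314). C1ql2 was lost without KO control replicate 2, 3 or 4, KO stress replicate 1 or 4 or WT stress replicate 6 (adjusted p up to 0.0819).

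Fezf2 (chromosome 14, 12342094 to 12348189), a zinc finger factor of forebrain projection neurons, was 1 of the 5 genes with every Pmch-positive library below every Pmch-low one. It had 25.6 to 32.3 CPM with a median of 30.7, against 33.6 to 64.3 CPM with a median of 52.2 (log2 fold change -0.83, adjusted p = 3.55e-06), and the difference was -0.57 within set 1 and -0.98 within set 2. The other 4, named after their values were seen, were Dkk3, Glt8d2, Bcl11a and Khdrbs3. Of 10 neocortex markers 2 were lower, Fezf2 and the channel subunit gene Scnn1a (-0.51 ± 0.15, adjusted p = 0.0261). Scnn1a was lost without KO control replicate 2 or 3 or KO stress replicate 1 or 4. The other 2 that passed were higher: Foxp2, also a gene of the thalamus (1.44 ± 0.39, adjusted p = 0.0194), and Rorb (0.55 ± 0.12, adjusted p = 0.0053). The amygdala list had 1 of 7 lower, Rspo2, an R-spondin gene (-0.63 ± 0.16, adjusted p = 0.0131), and 2 without WT stress replicate 2.

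The list of GABA neuron markers was split, with Gad2, the glutamate decarboxylase gene (log2 fold change 0.42, adjusted p = 0.036), and the vesicular GABA transporter gene Slc32a1 (0.30, adjusted p = 0.041) higher and the cholecystokinin gene Cck (-0.42, adjusted p = 0.0301) and the serotonin receptor gene Htr3a (-0.53, adjusted p = 0.0338) lower of 16. Each of these 4 calls was lost without any 1 of several libraries, from 6 for Cck to 17 for Slc32a1, KO control replicate 2 among them for all 4, and 0 passed with genotype as a term.

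Immediate early genes, which neurons switch on with activity, gave 4 of 10 lower and 0 higher (median log2 fold change -0.98). Arc, which encodes a synaptic capsid-like protein, had 115 to 201 CPM with a median of 140 in Pmch-positive libraries, against 133 to 752 CPM with a median of 264 in Pmch-low libraries (-1.18 ± 0.30, adjusted p = 0.0156). Junb, an AP-1 subunit gene (-1.17 ± 0.30, adjusted p = 0.0163), and the nuclear receptor gene Nr4a1 (-1.05 ± 0.29, adjusted p = 0.0222) were lower as well. Npas4, a neuronal activity factor, had medians of 14.8 and 28.3 CPM (-1.28 ± 0.36, adjusted p = 0.0266) and was lost without KO control replicate 2 or 3, KO stress replicate 1 or WT stress replicate 3 (adjusted p up to 0.0639). With genotype as a term 3 were lower, while with library set as a term and within set 1 0 were.

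The remaining genes with the smallest fold changes had few reads or rested on single libraries. Dsc3, a desmosomal cadherin gene (-1.61 ± 0.38, adjusted p = 0.00875), and Ly6g6e, a Ly6 family gene (-1.26 ± 0.28, adjusted p = 0.00539), passed whichever library was left out. Cyr61, a matricellular growth factor gene (-1.65 ± 0.53, adjusted p = 0.0458), and Bglap3, an osteocalcin-related gene with near-identical copies (-1.29 ± 0.41, adjusted p = 0.0414), were each lost without any 1 of 15 libraries, with an adjusted p of up to 0.133 and 0.0843. The calls held without KO control replicate 1, WT control replicates 1 to 5 or WT stress replicate 1 for both genes, without WT stress replicate 2 or 6 for Cyr61, and without KO control replicate 4 or KO stress replicate 5 for Bglap3. Zcchc5, a retrotransposon-derived gene (-1.37 ± 0.43, adjusted p = 0.0389), was lost without KO control replicate 2, 3 or 4, KO stress replicate 1, 2, 3 or 4 or WT stress replicate 4 or 6.

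The stress comparison of the study was refitted with and without the Pmch split as a term. With the term 37 genes were higher (0.227%) and 0 lower in stress than in control libraries, and without it 48 were higher (0.294%) and 1 lower (0.00613%), with all 37 among the 48. The 1 lower gene, called only without the term, was the clock gene Arntl (log2 fold change -0.25, adjusted p = 0.0412, against -0.22 and 0.071 with the term). In the 16 Pmch-low libraries alone 27 genes were higher (0.157%), of which 23 were among the 37. The count with the term ranged from 26 without KO control replicate 2 to 56 without WT stress replicate 1. At an unadjusted p under 0.05 there were 946 genes with the term.

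The 10 stress-raised genes listed for this comparison had been chosen from these data, so their direction is not independent evidence. All 10 passed with the term. Lcn2, the iron-binding acute-phase protein lipocalin 2, averaged 7.65 CPM in stress and 0.332 CPM in control libraries and had a log2 fold change of 4.52 ± 0.55 with the term (adjusted p = 0.000115) and 4.49 without it. Alas2, the erythroid enzyme of heme synthesis, had 2.26 with and 2.23 without the term, and Vwf, von Willebrand factor, 1.26 and 1.22. For the Pmch split, S100a8 met the filter only with its higher side and is left out. Over all 24 libraries none of the other 9 passed for the split in the edgeR or the DESeq2 test. The adjusted p-values ran from 0.243 to 0.855 in edgeR, where 0 had an unadjusted p under 0.05. Within set 1, 1 of the 9 was lower in edgeR, Lrg1 (log2 fold change -0.67, adjusted p = 0.027). Within set 2 it had -0.49 (adjusted p = 0.389), and 0 of the 9 passed there.

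**Figure D5:**
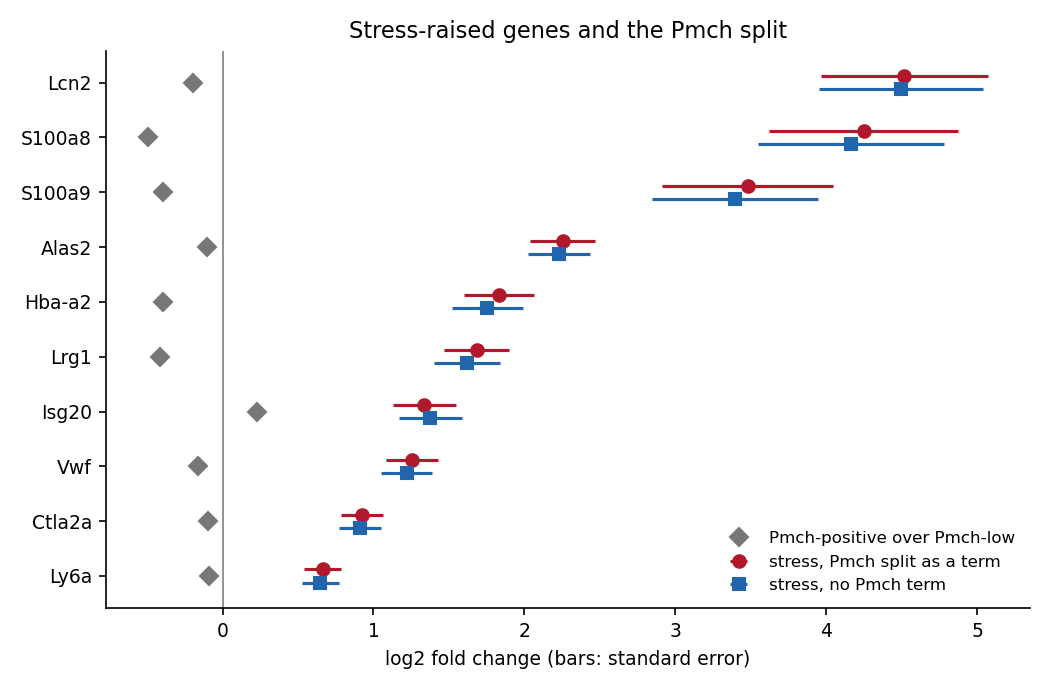
Log2 fold change of 10 stress-raised genes, stress over control libraries, with and without the Pmch split as a term (bars are SE), and of the same genes for Pmch-positive over Pmch-low libraries (diamonds). Lcn2 lies at 4.52 with and 4.49 without the term, and the diamonds lie between -0.49 and 0.23. The lowest diamond is S100a8, which met the filter only with its higher side and has no test for the split.

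Whether the difference between Pmch-positive and Pmch-low libraries itself differed between stress and control libraries was tested as an interaction. No gene passed in the edgeR test (856 had an unadjusted p under 0.05) or in the DESeq2 test (923 such genes), with 5 and 3 Pmch-positive libraries in stress and control.

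The comparison of KO with WT libraries, averaged over stress, was refitted in the same way. Without the Pmch term, edgeR called 0 genes (948 at an unadjusted p under 0.05) and DESeq2 called 4 genes, all higher in KO. They were Pomc (adjusted p = 0.0196) and the markers Avp, Hcrt and Oxt, whose calls are no support since these genes name the tissue. With the Pmch term both called 0, with 173 and 211 genes at an unadjusted p under 0.05. The edgeR log2 fold change of Avp, KO over WT, was 5.08 without and 1.10 with the term, that of Hcrt 4.21 and 0.39, that of Oxt 5.0 and 1.23, and that of Pomc 1.53 and 0.43. In the 16 Pmch-low libraries edgeR called 0 genes between KO and WT (234 at an unadjusted p under 0.05).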

How the data were processed

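RNA of 24 hippocampus samples was sequenced. The authors deposited whole-number read counts per gene, not normalized. STAR, DESeq2 and mm10 are named in the submitters' processing notes. Which counter was used, and whether it used strand, is not given in the sources used here. Of the counts from 1 to 10 in a library, 70.9% to 75.8% were even, a pattern seen when both mates of a pair are counted.

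CPM here is 1000000 times the count over the column sum. Of 24062 genes, 16313 passed the edgeR filter (minimum count 10 in the 4 study groups, not the Pmch sides). The fit (edgeR 4.0.16, R 4.3.3, TMM factors, robust quasi-likelihood F test, Benjamini-Hochberg over all genes tested, threshold 0.05) had terms for stress and the Pmch split. The 4 label markers were left out of counts of calls, and so were, in the lists, genes whose lower side alone did not meet the filter, a choice made after seeing the data. Fisher's exact tests of the split against the study's groups had been planned and are not given. SE is the log2 fold change over the square root of F. Alternatives used DESeq2 1.42.0, limma 3.58.1 voom, other filters, thresholds and terms, library sets parted at 15000 CPM of Rn45s, and each library left out. The fit was tested on simulated data. Sequences and promoters came from RefSeq.

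The split, the members and the gene lists were chosen with earlier results of these data known. Named genes were the 4 markers, the 15 largest and 10 smallest log2 fold changes among called genes with at least 1 CPM on a side and 1 direction whichever library was left out, up to 4 called members per list (2 of smallest p where none was called), and the stress-raised genes. Further list members complete a list, and a few are not reported here. Every pair of libraries differed by more than sampling noise. Same-numbered libraries were not treated as pairs.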

Additional observations from a re-analysis of the deposited data

Results flagged for a closer look

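In 12 of the tests made over 93 named genes, 1 of the 8 Pmch-positive libraries stood apart from the other 7 by Dixon's criterion. Chance gives about 1 such case in 20 groups. The 93 included Pmch, which made the split, and genes such as Gabre that met the filter only with their higher side. Their flags are given as values and are not read against that rate. KO stress replicate 5 was low for Pmch (16.6 CPM, nearest value 45.4) and for Gal (2.03 CPM, nearest 5.65), and high for Rspo2 (16.7 CPM, nearest 9.96). KO stress replicate 3 was high for Pomc (25.5 CPM, nearest 13.7), for Gabre (3.83 CPM, nearest 2.04) and for the myelin genes Mog (179 CPM, nearest 131), Cldn11 (391 CPM, nearest 307) and Mag (449 CPM, nearest 349). KO control replicate 2 was high for the striatal genes Rgs9 (103 CPM, nearest 54.9) and Drd2 (24.5 CPM, nearest 15.8). WT stress replicate 5, the only WT library among the 8, was high for Zcchc5 (3.67 CPM, nearest 1.82), and KO stress replicate 2 was low for Npnt (15.8 CPM, nearest 19.9).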

How the results depend on the processing

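The count of genes called for the Pmch split, 1758, was 834 at a threshold of 20 CPM, 4523 with limma voom, 496 with the 4 study groups in place of stress, 531 with genotype as a further term and 754 in KO mice only. It was 226 in set 1, 4386 in set 2, 64 with Tcf7l2 as a term, 171 with Ttr as a term and 768 without the 3 Pmch-positive libraries of set 2. It was 891 with the replicate number as a block. The correlation of same-numbered libraries ran from -0.43 to 0.489 over 33 pairs, with a median of 0.117 against -0.0753 for other numbers. Of 24 libraries, 3 correlated best with their own number. DESeq2 called 2318 genes. Leaving out 1 library gave 1116 to 2569 genes. The fits in KO mice and with genotype were chosen after seeing the data. The cause of these shifts was not tested.

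The 37 genes called for stress became 80 with DESeq2, 74 with limma voom, 0 in set 1, 77 in set 2 and 24 without the 3 Pmch-positive libraries of set 2, and 26 to 56 with 1 library left out. The interaction and the KO to WT comparison stayed at 0 in the edgeR fits with each library left out.

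Among the 72 genes that the naming rule chose and that were tested, direction turned with Tcf7l2 as a term for Cck (0.012), Gad2 (-0.053), Cx3cr1 (0.11), Cldn5 (0.016), Rn45s (-0.38) and Malat1 (-0.32), and within set 1 for Cx3cr1 (0.042). For these genes, 876 values under the other alternatives kept direction and side of the threshold, 333 no longer passed, 8 newly passed and 7 turned. With 1 library left out these numbers were 1596, 128, 4 and 0. Further list members outside the rule turned too, such as Cartpt (-0.59) and Lhx1 (-1.10) within set 1. Genes with a few reads per library, such as Six6 and Hmx2, are limited by depth.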
